A study of Gallus gallus with 6 samples.

Results

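Small leucine-rich proteoglycans are secreted proteins of the connective tissue matrix, built on a curved stack of leucine-rich repeats and often carrying glycosaminoglycan chains. They bind collagen fibrils and set their thickness and spacing, and several of them also bind growth factors of the TGF-beta family. In skin they are made mainly by fibroblasts of the dermis, whereas tendon and cartilage are the tissues best known for fibromodulin. Transcripts of this family were followed in cloacal skin of Ma-Huang chickens. FMOD (fibromodulin, Gene ID 395814) was selected on its rise in s_light in these same libraries, so its values between the groups are given as a description, and DCN, LUM, OGN, PRELP, KERA, EPYC, ASPN, OMD and PODN were taken as its family. Of the 10 symbols, 9 were matched to a gene in the files, out of 18315 genes in all, and 7 of these 9 reached the mean level needed for testing. ASPN (asporin) had no match by symbol in the RefSeq gene table used and was not analysed under that name.

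RNA-seq was performed on 6 skin pieces, 1 from each bird, all from a commercial pure line kept under the same feeding and slaughtered at the same age. The 3 birds of the s_deep group (s_deep6402, s_deep6403 and s_deep7858, named by wing number) had high yellowness of the cloacal skin and the 3 birds of the s_light group (s_light6575, s_light6971 and s_light8275) had low yellowness, with no other treatment and no bird shared. Subcutaneous fat was scraped off before freezing, and each library came from a whole piece of skin, so that fewer cells of a type and less RNA per cell cannot be told apart. Expression is given in FPKM, read fragments scaled to the exon length of the gene and to the size of the library, which allows levels of different genes to be compared per length.

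Summed FPKM ranged from 471488 to 488777 over the libraries, and between 16477 and 16720 genes were above 0. The paper gives the valid reads obtained from each group, but the number of reads behind a value is not given. Fibroblast genes (12 of 12 listed) summed to 4094.32 to 6460.28 FPKM in s_deep against 4239.14 to 6927.88 FPKM in s_light, and the 9 keratinocyte genes found to between 2450.64 and 2878.2 FPKM and between 1868.2 and 3110.03 FPKM, so the defining markers of skin were present in every library. W-linked genes, found in hens but not in cocks, stood apart in s_deep6402 and s_deep6403. The mean log2(FPKM + 0.1) of 34 such genes was -1.32 and -1.60 in these libraries, 3.00 in s_deep7858 and between 2.70 and 3.02 in s_light. The labels do not give the sex of the birds, and the paper's flock held both sexes. Low W-linked values occurred in s_deep alone, so differences of sex and of yellowness cannot be fully told apart. A fit with the W-linked mean as a covariate sets mainly s_deep7858 against the s_light libraries. Values from that fit therefore rest largely on a single s_deep bird wherever they are given below. With s_deep7858 left out, every s_deep library is low in W-linked genes and every s_light library is high. Fits without s_deep7858 therefore cannot tell sex and yellowness apart at all. In the study's photograph-based colour classes the wing number of s_deep6403 is listed among the nearly white birds, although the library carries the s_deep label. Those classes rank the skin colour of the photographed carcass, whereas the groups were chosen by the yellowness of the cloacal skin, so the measures differ.

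Levels within the family spanned from among the highest of the transcriptome to near 0. DCN (decorin, Gene ID 417892), which carries a single chondroitin or dermatan sulphate chain and binds both collagen and TGF-beta, ranked 143 of all genes by mean FPKM. It was read at 517.51 FPKM in s_deep6402, 489.88 in s_deep6403 and 649.61 in s_deep7858, against 449.05 in s_light6575, 722.17 in s_light6971 and 424.02 in s_light8275. Its highest and lowest libraries were both in s_light, and the groups overlapped. Where 3 values are given for each group in what follows, the libraries are in this order. LUM (lumican, Gene ID 417891), a keratan sulphate proteoglycan needed for the order of collagen fibrils in cornea and dermis, was read at 220.77, 361.72 and 262.34 FPKM in the s_deep birds against 208.42, 314.90 and 179.10 FPKM in the s_light birds. DCN was the highest and LUM the next of the 9 genes in each of the 6 libraries, with ratios of DCN to LUM between 1.35 and 2.48.

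OGN (osteoglycin, Gene ID 374039), a collagen-binding member first studied in bone, was the steadiest of the family. It was read at 45.91, 39.60 and 54.61 FPKM in the s_deep birds against 52.19, 54.62 and 52.45 FPKM in the s_light birds, a factor of 1.38 between the highest and lowest library. PRELP (Gene ID 419933), whose basic amino-terminal part binds heparan sulphate and links basement membranes to the matrix, was read at 25.54, 39.67 and 63.11 FPKM in the s_deep birds against 61.74, 45.34 and 26.97 FPKM in the s_light birds. OGN and PRELP exchanged the third and the fourth place from library to library, so their order was within the spread. PODN (podocan, Gene ID 424647), a collagen-binding member first described in kidney, was the fifth in every library, at 15.88, 21.24 and 7.87 FPKM in s_deep against 17.38 to 18.45 FPKM in s_light. The low PODN value belonged to s_deep7858 alone.

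The last members were barely expressed. OMD (osteomodulin, Gene ID 101747586), a keratan sulphate proteoglycan of bone, was read at 0.86, 2.30 and 0.48 FPKM in the s_deep birds against 0.79, 0.34 and 0.86 FPKM in the s_light birds. EPYC (epiphycan, Gene ID 417890), a cartilage member, was between 0.03 and 0.07 FPKM in the s_deep birds against 0.07, 0.28 and 0.07 FPKM in the s_light birds. KERA (keratocan, Gene ID 373995), best known from the corneal stroma, was listed at 0.02 FPKM in s_deep6403 and s_light8275 and at 0 in the other libraries. EPYC and KERA were under the mean of 0.1 FPKM asked for and were not tested.

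FMOD, which was chosen for its rise in s_light, was the only family member whose groups did not overlap. This collagen-binding proteoglycan shares a binding site on collagen I with lumican, and it is abundant in tendon, ligament and cartilage. It was read at 0.24 FPKM in s_deep6402, 0.38 in s_deep6403 and 0.43 in s_deep7858, against 11.67 in s_light6575, 7.89 in s_light6971 and 17.00 in s_light8275. Every s_light library was above every s_deep library, and the lowest s_light value was 18.4 times the highest s_deep value. On the log2(FPKM + 0.1) scale, which is used for every fold change here as s_light minus s_deep from limma, it was 4.73 higher in s_light (SE, the standard error, 0.34; 95% interval 3.92 to 5.53). This scale understates the change of a gene with low FPKM, and the ratio of the group means themselves was 34.8. Of the 15900 genes tested, 18 had a larger log2 fold change. Groups without overlap made up 5.36% of the tested genes with s_light above and 5.48% with s_light below. Overlap in the other members is thus what most genes show. The s_deep7858 bird, whose W-linked genes were read as in s_light, had FMOD at 0.43 FPKM. The part of sex in the FMOD values was not tested.

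**Figure D1:**
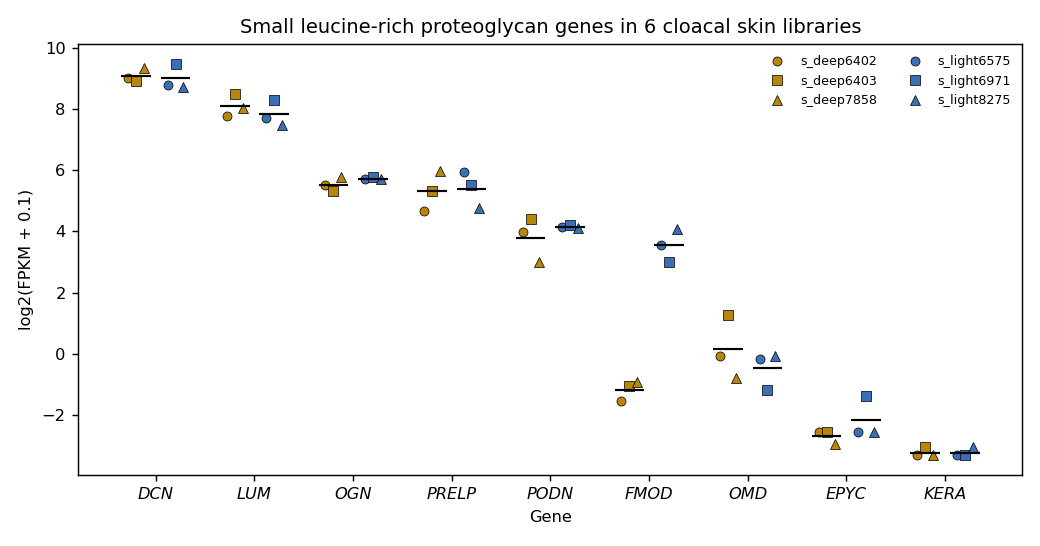
Level of each of the 9 family members found, as log2(FPKM + 0.1) on the vertical axis, with 1 point per library (yellow, s_deep; blue, s_light) and a bar at each group mean. FMOD takes values of 0.24 to 0.43 FPKM in s_deep against 7.89 to 17.00 FPKM in s_light, while the groups overlap in every other member. Over all tested genes, 5.36% had s_light above without overlap and 5.48% had s_light below.

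Within the family, FMOD moved from the seventh place in each s_deep library to the sixth in each s_light library, passing OMD. Its part of the summed FPKM of the 9 members was between 0.029% and 0.0414% in s_deep and between 0.678% and 2.37% in s_light. In terms of lumican, between 610 and 952 LUM transcripts were read per FMOD transcript in s_deep and between 10.5 and 39.9 in s_light, on the FPKM scale. DCN and LUM held between 51.3% and 62.6% and between 24.9% and 37.9% of the family's FPKM across the 6 libraries. The summed level of the family without FMOD was 826.54 to 1038.05 FPKM in s_deep against 700.87 to 1156.10 FPKM in s_light, so FMOD was a minor component in both groups.

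A gene was called where the absolute log2 fold change reached 1 with an FDR no higher than 0.05, and 7 of the 15900 genes (0.044%), all of them higher in s_light, were called, FMOD among them and no other member. That contrast was used to choose FMOD. With 1 library left out, FMOD was still called without s_deep7858 (adjusted p = 0.00651, limma) and no longer called without any one of the other 5 (adjusted p between 0.0586 and 0.175), and the number of genes called ran from 0 to 69, the latter without s_deep7858. Leaving out s_deep7858 sets libraries low in W-linked genes against libraries high in them, so sex and yellowness cannot be told apart in that fit. When the W-linked mean entered the fit, FMOD had an adjusted p of 0.154 and 0 genes were called, while 967 had an unadjusted p under 0.05. The called gene nearest to the FDR limit was HSPB1 (adjusted p = 0.0476), and the nearest ones outside it were ATF3 and NRAP (both 0.0529, limma). The other 6 tested members, which were not chosen by their own values, had log2 fold changes between -0.61 and 0.36 with a median of -0.00, against a median of -0.02 over all tested genes, and the lowest adjusted p among them was 0.934, for OGN (limma). Their 95% intervals show how much the data leave room for. For OGN the interval of the log2 fold change was -0.12 to 0.51 (s_deep 46.7 ± 7.54 FPKM, s_light 53.1 ± 1.33 FPKM, SD, 3 libraries each). For DCN it was -0.65 to 0.47, and for LUM -0.89 to 0.34, so a change of either by a factor of 2 lay outside these intervals. PRELP (-0.85 to 1.01) and PODN (-0.43 to 1.15) were less well bounded, and OMD (-1.99 to 0.77) the least. The sign of the PODN difference depended on s_deep7858, and without this library the log2 fold change was -0.04. With the mean of W-linked genes as a covariate it was 1.14 (adjusted p = 0.307, limma), a value that rests largely on the low PODN level of s_deep7858.

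Other genes of leucine-rich repeat proteins of the matrix were compared from a list of 10 symbols, of which 7 were in the files and all 7 were tested. None passed the FDR, and 2 had an unadjusted p under 0.05, both higher in s_light, where 3.49% of all tested genes were higher and 2.96% lower at that level. The first was CHAD (chondroadherin, Gene ID 769665), a cartilage matrix protein that binds collagen and integrins. CHAD was read at 60.95, 64.69 and 76.51 FPKM in the s_deep birds against 103.64, 192.18 and 121.20 FPKM in the s_light birds, without overlap, its log2 fold change being 1.0 (SE 0.23, adjusted p = 0.381, limma). The second was OPTC (opticin, Gene ID 395130), known from the vitreous of the eye, at 1.98, 0.78 and 1.52 FPKM in the s_deep birds against 3.5, 4.32 and 3.03 FPKM in the s_light birds. The OPTC groups did not overlap either, and the log2 fold change was 1.36 (SE 0.36, adjusted p = 0.487, limma). Groups without overlap were found for 5.36% of the tested genes with s_light above and for 5.48% with s_light below. With the W-linked mean as a covariate, 1 gene of this list had an unadjusted p under 0.05 and was higher in s_light. Over all 15900 tested genes in that fit, 575 were higher and 392 lower at that level.

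**Figure D2:**
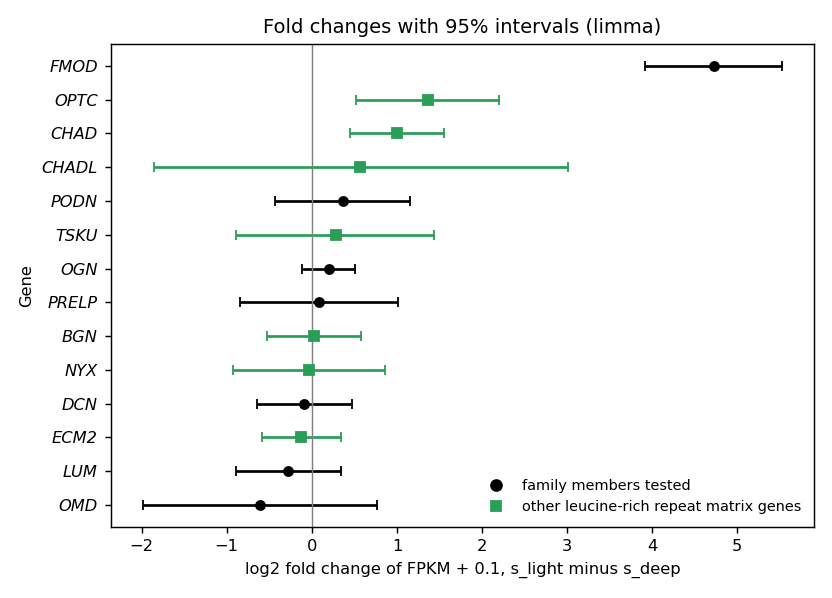
Log2 fold change of FPKM + 0.1, s_light minus s_deep, on the horizontal axis for the 7 tested family members (black circles) and the 7 other leucine-rich repeat matrix genes (green squares), with 95% intervals from limma. FMOD stands at 4.73, CHAD and OPTC at 1.0 and 1.36, and the intervals of the remaining 11 genes include 0.

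The groups overlapped in the other genes of that list. The gene that RefSeq names BGN (Gene ID 415954) was the most abundant of them at 183 ± 45.8 FPKM in the s_deep birds against 185 ± 41.2 FPKM in the s_light birds (SD, 3 libraries each), with an interval of -0.53 to 0.58 for the log2 fold change. Biglycan is a proteoglycan with chondroitin or dermatan sulphate chains. Whether this gene encodes biglycan or asporin was not tested. ECM2 (Gene ID 415953) was read at 104 ± 13.4 FPKM in the s_deep birds against 96.8 ± 25.2 FPKM in the s_light birds. TSKU (tsukushi, Gene ID 419088), a secreted inhibitor of BMP signalling first found in the chick, ranged from 4.47 to 19.11 FPKM within s_deep. CHADL and NYX reached at most 5.41 and 0.45 FPKM.

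Many of these genes lie next to each other, and the neighbours of FMOD were therefore compared with it. In the RefSeq order of assembly GRCg7b, which is not the build used for the files, FMOD is followed by PRELP and OPTC and preceded by BTG2. BTG2, an antiproliferative gene induced early after cell stimulation, was read at 85.31, 128.91 and 102.70 FPKM in the s_deep birds against 295.60, 115.72 and 155.50 FPKM in the s_light birds. Its log2 fold change was 0.74 (SE 0.34) and the groups overlapped. PRELP, directly beside FMOD, had 0.08 as its log2 fold change (SE 0.40), and ATP2B4, the calcium pump gene beyond OPTC, had 0.17 (SE 0.13). The groups thus overlapped in the coding genes on either side of FMOD, and OPTC, the nearest protein-coding gene without overlap, lay beyond PRELP.

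The second cluster holds EPYC, KERA, LUM and DCN in this order, and the third ECM2, BGN, OMD and OGN. Within each, abundant and nearly silent genes are direct neighbours, as with KERA at no more than 0.02 FPKM beside LUM at no less than 179.10 FPKM, and OMD at no more than 2.30 FPKM beside OGN at no less than 39.60 FPKM. In the human genome ASPN lies between ECM2 and OMD, a place that the chicken table gives to the gene named BGN, so the values under that name may be those of ASPN. In the same assembly FMOD is overlapped by the long noncoding RNA LOC107055172, which is not analysed here, and PRELP by LOC107055169. The latter was read at 0.08, 0.08 and 0.07 FPKM in the s_deep birds against 0.17, 0.20 and 0.10 FPKM in the s_light birds, without overlap, its log2 fold change being 0.52 (SE 0.39, adjusted p = 0.948, limma). OGN and OMD lie within the span of CENPP, read at between 2.59 and 3.79 FPKM. PODN overlaps the end of SCP2, which was read at between 154.54 and 213.11 FPKM, and a library type that keeps strand is not stated, so reads of the shared stretch could not be assigned with certainty.

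Members of the family act on collagen fibrils, and the genes of those fibrils were compared next. Of the 10 fibrillar and fibril-associated collagen genes found, 0 had an unadjusted p under 0.05 in either direction (limma, with 0 past the FDR). Over all tested genes, 3.49% were higher and 2.96% lower at that level, so a count of 0 among 10 is near these shares. The log2 fold changes of the 10 genes lay between -0.11 and 0.42, and the median was 0.14. COL3A1 was the most abundant, at between 772.42 and 1661.54 FPKM, and COL6A2 and COL6A1 followed. The libraries with the highest DCN, s_light6971 and s_deep7858, also had the highest COL1A1, COL1A2, COL3A1 and BGN. FMOD did not share this order, since it was at 7.89 FPKM in the first of these libraries, its lowest value in s_light, and at 0.43 FPKM in the second. LUM differed from DCN in being highest in s_deep6403, at 0.678 of the COL1A1 level there against between 0.25 and 0.394 in the other libraries.

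Among 15 enzymes and helpers of collagen processing and cross-linking that were found, 2 were higher and 1 lower in s_light at an unadjusted p under 0.05, with no overlap between the groups, and none passed the FDR. Over all tested genes, 3.49% were higher and 2.96% lower at that level. Groups without overlap made up 5.36% with s_light above and 5.48% with s_light below. PCOLCE2, which enhances the removal of the procollagen C-propeptide, was read at 6.67, 5.23 and 7.62 FPKM in the s_deep birds against 15.28, 12.19 and 16.94 FPKM in the s_light birds, which is 1.18 in log2 fold change (SE 0.20, adjusted p = 0.164, limma). LOXL2, a lysyl oxidase-like enzyme of collagen cross-linking, had 0.79 as its log2 fold change (SE 0.16, adjusted p = 0.297, limma). LOX, the founding enzyme of that family, which fibromodulin is known to bind, was lower in every s_light library, at 23.95, 22.49 and 28.77 FPKM in the s_deep birds against 20.84, 14.65 and 17.16 FPKM in the s_light birds. Its log2 fold change was -0.52 (SE 0.17, adjusted p = 0.648, limma). SERPINH1, LOXL1 and P4HA2 were the most abundant of the list, and their groups overlapped.

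The enzymes that build glycosaminoglycan chains on these core proteins were compared in the same way. Of 24 genes found, 0 were higher and 2 were lower in s_light at an unadjusted p under 0.05, against 3.49% and 2.96% of all tested genes. The median log2 fold change was -0.05, and 0 passed the FDR. The 2 lower genes were B4GALT1, a galactosyltransferase, with -0.49 (SE 0.10, adjusted p = 0.297, limma), and CHSY3, a chondroitin synthase, with -0.58 (SE 0.24, adjusted p = 0.761, limma). B3GNT7, an enzyme of keratan sulphate chains of the kind carried by fibromodulin and lumican, was read at 0.77 to 0.99 FPKM in s_deep against 1.24 to 2.07 FPKM in s_light, which is 0.66 in log2 fold change (SE 0.30, adjusted p = 0.792, limma). DSE and CSGALNACT2, a dermatan sulphate epimerase and an enzyme that begins chondroitin chains, overlapped between the groups.

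Genes of TGF-beta signalling, whose ligands are bound by decorin and fibromodulin, were also compared. None of the 14 found had an unadjusted p under 0.05, the median log2 fold change was -0.01, and 0 passed the FDR. The lowest p was that of TGFB2, its log2 fold change being 0.68 (SE 0.30, adjusted p = 0.779, limma), followed by SMAD2 with -0.47 (SE 0.22) and TGFBR1 with -0.15 (SE 0.15). TGFBI, TGFBR2 and LTBP1 were the most abundant. Of the 7 proteases found that can cleave these proteoglycans, 3 were higher (ADAMTS5, ADAMTS9 and ADAMTS1) and 1 was lower (MMP2) at an unadjusted p under 0.05. The shares over all tested genes were 3.49% higher and 2.96% lower. ADAMTS5, an aggrecanase, was read at 1.15, 0.85 and 1.55 FPKM in the s_deep birds against 3.48, 3.06 and 2.11 FPKM in the s_light birds, its log2 fold change being 1.22 (SE 0.31, adjusted p = 0.458, limma). MMP2, gelatinase A, was the most abundant, at 302.38, 346.55 and 360.03 FPKM in the s_deep birds against 240.01, 290.57 and 169.55 FPKM in the s_light birds. Its log2 fold change was -0.56 (SE 0.21, adjusted p = 0.714, limma). Of 18 other proteoglycan genes found, 15 were tested, and SPOCK1 (testican 1) alone of these had an unadjusted p under 0.05. Its log2 fold change was 1.06 (SE 0.29, adjusted p = 0.501, limma), and SDC4, CD44 and GPC1 were the most abundant of the list.

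Since fibromodulin is a protein of tendon, genes of tendon cells were set beside it. All 8 of the list were tested, all 8 had a log2 fold change above 0, 4 had an unadjusted p under 0.05 and 3 of these had no overlap, and the median log2 fold change was 1.03. Over all 15900 tested genes, 7343 had a log2 fold change above 0, 3.49% were higher at an unadjusted p under 0.05 and 5.36% had every s_light library above every s_deep library. Of the tested markers of other tissues, 7 of 7 nerve, 11 of 12 smooth muscle and 8 of 9 cartilage genes also had a log2 fold change above 0. The same held for 6 of 8 adipocyte and 3 of 4 skeletal muscle genes. It held for 5 of 12 fibroblast, 2 of 9 keratinocyte and 0 of 8 endothelial genes. SCX (scleraxis), the transcription factor that marks tendon progenitors, was listed at 0 in s_deep6402 and at 0.05 FPKM in s_deep6403 and s_deep7858, and was read at 0.89, 1.16 and 0.42 FPKM in s_light. Its log2 fold change was 2.72 (SE 0.46, adjusted p = 0.167, limma). TNMD (tenomodulin), a membrane protein of mature tendon cells, was at 2.40, 2.76 and 6.77 FPKM in the s_deep birds against 8.07, 10.48 and 7.54 FPKM in the s_light birds. COMP, a matrix protein of cartilage and tendon, was at 5.58, 6.52 and 24.58 FPKM in the s_deep birds against 28.16, 47.41 and 42.46 FPKM in the s_light birds. In s_deep7858 both TNMD and COMP came close to the s_light values, and FMOD did not. The groups overlapped in the rest of the list, MKX, THBS4, EGR1, EGR2 and TNC.

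**Figure D3:**
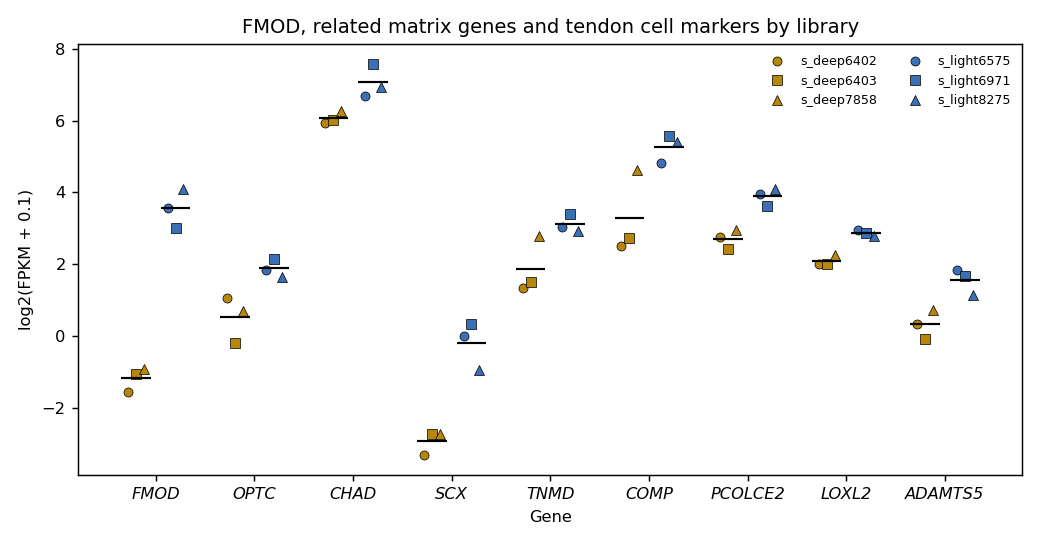
Levels of FMOD, 2 related leucine-rich repeat genes (OPTC, CHAD), 3 tendon cell markers (SCX, TNMD, COMP) and PCOLCE2, LOXL2 and ADAMTS5, as log2(FPKM + 0.1) on the vertical axis, with 1 point per library and a bar at each group mean. Only genes without overlapping groups are shown, and the groups overlap in the other tendon markers of the list (MKX, THBS4, EGR1, EGR2 and TNC). All genes shown are higher in s_light. LOX and MMP2, from the lists of LOXL2 and ADAMTS5, were lower in s_light without overlap (log2 fold changes -0.52 and -0.56) and are not shown. The s_deep7858 library lies near the s_light libraries for TNMD (6.77 FPKM) and COMP (24.58 FPKM) and far from them for FMOD (0.43 FPKM).

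The summed level of the 8 tendon genes was 78.53 to 213.24 FPKM in s_deep against 202.34 to 307.25 FPKM in s_light. EGR1, an immediate-early gene as well as a regulator of tendon cells, was the most abundant of them at between 42.04 and 213.56 FPKM. Without s_deep7858, 6 of the 8 had an unadjusted p under 0.05 and were higher. Over all 15900 tested genes in that fit, 660 were higher and 720 lower at that level. With the W-linked mean as a covariate, 1 of the 8 tendon genes was higher and 1 was lower at that level. In the covariate fit, 575 of the 15900 tested genes were higher and 392 lower. Cartilage markers stayed low, with sums of 6.04 to 9.32 FPKM in s_deep against 8.38 to 13.76 FPKM in s_light for the 10 genes. Of the 9 tested, 1 (COL2A1) was higher at an unadjusted p under 0.05, as were 3.49% of all tested genes. COL2A1 was at 0.03 to 0.14 FPKM in s_deep and 0.39 to 0.75 FPKM in s_light.

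Some markers of several other cell types were also higher in s_light, none of them past the FDR. The counts that follow stand beside the 3.49% of all tested genes that were higher, and the 2.96% that were lower, at an unadjusted p under 0.05. Of 12 smooth muscle genes, 8 had an unadjusted p under 0.05 and were higher in s_light, and their sum was 1803.98 to 3477.86 FPKM in s_deep against 4066.78 to 7750.29 FPKM in s_light, with none of them at 0. This count was 7 without s_deep7858 and 5 with the W-linked mean as a covariate. In these fits 660 and 575 of all 15900 tested genes were higher at that level. ACTA2, which was the most abundant of the smooth muscle genes, did not take part, its log2 fold change being -0.32 (SE 0.26). Of 7 nerve and Schwann cell genes, 4 were higher at that level, and the sums were 65.87 to 126.19 FPKM in s_deep against 118.63 to 138.41 FPKM in s_light. PMP22, the most abundant of these, had a log2 fold change of 0.14 (SE 0.27), and NGFR 0.03 (SE 0.33). Of 8 adipocyte genes 4 were higher at that level, with sums of 1571.93 to 1881.91 FPKM in s_deep against 2324.3 to 2401.89 FPKM in s_light. ADIPOQ, the most abundant of these, went the other way with a log2 fold change of -0.35 (SE 0.24), as did LEPR with -0.29 (SE 0.41). Of 7 skeletal muscle genes found, 2 of the 4 tested were higher at that level (ACTA1 and MB). Their sums of 74.5 to 236.01 FPKM and 593.95 to 2136.77 FPKM were nearly all ACTA1, and MYOG was at 0 in every library. Endothelial genes summed to 474.95 to 662.63 FPKM in s_deep against 427.33 to 527.48 FPKM in s_light, with 1 of 8 lower at an unadjusted p under 0.05. The same was true of 1 of the 9 keratinocyte genes, while 0 of 12 fibroblast genes differed at that level in either direction (limma). The part of these cell types in the FMOD values was not tested.

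The genes whose pattern was most like that of FMOD were sought among 11881 genes with a symbol and a mean of at least 1 FPKM. Likeness was the root mean square difference over the 6 libraries between log2(FPKM + 0.1) profiles, each centred on its own mean, so that a value of 1 means that the profiles lay 1 log2 unit apart on average. The 10 nearest were TECRL, MYL4, GALR1, CNN1, LOC769354, BVES, YLEC8, LRMPL, HHATL and LOC100858282, at distances between 0.52 and 0.78. TECRL, an enoyl reductase-like gene of heart muscle, was the nearest, at 0.14, 0.23 and 0.06 FPKM in the s_deep birds against 3.83, 2.31 and 6.94 FPKM in the s_light birds. In TECRL, as in FMOD, the highest library was s_light8275 and the lowest of s_light was s_light6971. CNN1 (calponin 1), a thin-filament protein of smooth muscle, was at 12.04, 40.31 and 32.58 FPKM in the s_deep birds against 259.29, 279.05 and 549.65 FPKM in the s_light birds. MYL4 is a myosin light chain of atrial and embryonic muscle, GALR1 a receptor for galanin, and BVES a membrane protein of heart and skeletal muscle. All 10 had groups without overlap, and the choice by likeness to FMOD fixes that direction.

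**Figure D4:**
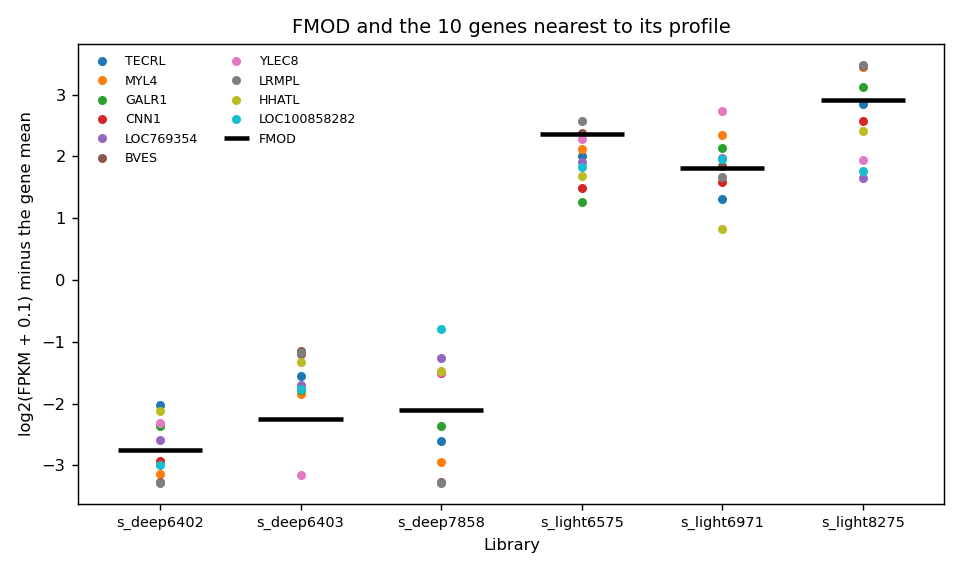
Profiles of FMOD (black bars) and of the 10 genes nearest to it (coloured points) over the 6 libraries, as log2(FPKM + 0.1) minus the mean of the gene on the vertical axis. The distances of these genes from FMOD are between 0.52 and 0.78 log2 units, and FMOD is highest in s_light8275.

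No family member was near FMOD on this measure, which is dominated by the difference between the groups for which FMOD was chosen. KERA, nearly flat with values of 0 or 0.02 FPKM, lay at a distance of 2.38. Distances around or above that of KERA therefore mostly restate a small or negative log2 fold change, and clearly shorter ones a rise in s_light. Likeness to FMOD within the groups was not tested separately. The nearest of the members with a mean of at least 1 FPKM was PODN at rank 1281, with a distance of 2.27, then OGN at rank 1574, with 2.30. PRELP, DCN and LUM were at ranks 5461, 8579 and 10520. OPTC at rank 143, with a distance of 1.82, and CHAD at rank 219, with 1.95, were closer than any member, and so were COMP at rank 53 and TNMD at rank 151. SCX, whose mean was under 1 FPKM and which was therefore not ranked, lay at a distance of 1.22. The smooth muscle genes CNN1, DES and ACTG2 were at ranks 4, 11 and 13.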

How the data were processed

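Poly(A) RNA of 6 skin pieces was sequenced as single-end reads. The paper's methods name TopHat for alignment, whereas the submitters' processing notes list HISAT2 2.0.4, Bowtie2 2.2.5 and RSEM 1.1.12, and the program that gave the values is not settled by these. The authors deposited FPKM per NCBI Gene ID and library, rounded to 2 decimals. Of 1254 ratios of low values within a gene, 34.0% lay within 0.1 of a whole number, and no share for comparison was worked out. Rounding to 2 decimals blurs such ratios, so this check cannot decide whether low values go in steps of whole reads. The number of reads behind a value was not worked out. Sequences of the genes were not used here.

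Symbols came from RefSeq (GRCg7b, 83.5% of the IDs) and, for IDs without a match, from the study's gene list. Testing was limited to genes whose mean over the 6 libraries reached 0.1 FPKM and was done with limma 3.58.1 in R 4.3.3 (intensity trend, no covariate) on log2(FPKM + 0.1), with Benjamini-Hochberg adjustment over all 15900 genes. The p-values measure the spread between single birds. The test was tried on simulated data. Tables were made with Python 3.11.15, numpy 2.4.6 and pandas 2.3.3. The members and lists were chosen with earlier results of these data known. Genes named were all members, the other leucine-rich repeat matrix genes, from each list mainly the 3 of lowest p and the 3 of highest mean, the 10 genes nearest to FMOD, and annotated neighbours. MYOG and other genes outside this rule were named after their values were seen. As alternatives, the pseudocount was set to 1 or to 0.01, the filter was dropped or raised to 1 FPKM, libraries were rescaled by median of ratios or by quantiles, the trend was switched off, the mean of W-linked genes entered as a covariate, and each library was left out in turn. Counts for the gene lists without s_deep7858 and with the covariate were added after the data were seen.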

Additional observations from a re-analysis of the deposited data

How the results depend on the processing

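The log2 fold change of FMOD was between 3.23 (pseudocount 1) and 5.05 (pseudocount 0.01) over all 14 alternatives, always higher in s_light, with adjusted p between 0.00651 and 0.175 (limma). FMOD was chosen for its rise in these same libraries. Its constant direction was therefore largely set by the choice, and these values describe the dependence on the settings only. It did not pass the FDR with no filter on low values (4.73, adjusted p = 0.0752) or with the W-linked mean as a covariate (4.47, adjusted p = 0.154). With each library left out in turn it was between 4.45 (without s_light8275) and 5.0 (without s_light6971), and the adjusted p was 0.0918 without s_deep6402, 0.0586 without s_deep6403, 0.175 without s_light6575, 0.0832 without s_light6971 and 0.129 without s_light8275, and 0.00651 without s_deep7858. The fit without s_deep7858 sets libraries low in W-linked genes against libraries high in them, so it cannot tell sex and yellowness apart. The cause of these differences in adjusted p was not tested. The number of genes past both thresholds was 11 with a pseudocount of 1, 12 with median-of-ratios scaling, 0 with the W-linked covariate, and between 0 and 69 with a library left out (69 without s_deep7858), against 7; with the covariate 967 genes had an unadjusted p under 0.05. None of the other members passed in any alternative. With the covariate, which sets mainly s_deep7858 against the s_light libraries, the sign turned for OGN (-0.03), PRELP (-0.54) and OMD (0.27). With a library left out it turned for DCN, PRELP and PODN, whose ranges were -0.33 to 0.06, -0.24 to 0.41 and -0.04 to 0.67. OMD had no value with a minimum mean of 1 FPKM. With the covariate, 1 of the 8 tendon genes was higher at an unadjusted p under 0.05, and 1 other was lower. At that level 5 of the 12 smooth muscle genes (8 without the covariate) and 1 of the 7 other leucine-rich repeat genes were higher. Over all 15900 tested genes in the covariate fit, 575 were higher and 392 lower. Without s_deep7858 the numbers higher in these lists were 6, 7 and 3, against 660 higher and 720 lower over all tested genes. Of the 7 tested family members, FMOD included, 2 were higher at that level in each of these fits, against 1 in the main fit. No paired analysis was possible because no wing number occurs in both groups. The paper gives the valid reads obtained from each group, but not the number of reads behind a value. The counting error of low values, such as those of FMOD in s_deep, was therefore not worked out.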
